A study of Mus musculus with 20 samples.

Results

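Immediate early genes are the genes whose transcripts appear first after a cell is stimulated, without the need for new protein synthesis. The set described here is the fast immediate early genes, 34 genes listed by their symbols and drawn from the AP-1, EGR, NR4A and KLF transcription factor families, other nuclear regulators, MAP kinase phosphatases, stress genes and signalling proteins. All 34 were found among the 24421 gene rows of every count file. The rule lists them by symbol and not by expression value, but they were chosen with earlier results of these data known. Among them are Npas4 and Btg2, which the study had reported as changed. RNA-seq was performed on the neocortex and hippocampus of 3-month-old mice, giving 20 libraries, 5 to a genotype in each region. The conditional triple knockout (cTKO) mice carried floxed alleles of App, Aplp1 and Aplp2, and the Camk2a-Cre transgene deleted them postnatally in excitatory neurons of the forebrain. The littermate controls carried the same floxed alleles without Cre, although their labels call them wild type, and all mice were of both sexes on a C57BL/6J and 129 hybrid background. Other brain cells of the cTKO mice keep the 3 genes, and the tissue was not sorted.

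In neurons, calcium entering through NMDA receptors and voltage-gated channels activates CaM kinases and the MAP kinase cascade, which act on the factors CREB, SRF and MEF2 already bound at the promoters of these genes. Several of their products are themselves transcription factors, which then switch on later genes such as the neurotrophin gene Bdnf, while the phosphatases among them switch the MAP kinase signal off again. Their transcripts are short-lived, and neuronal activity in the neocortex and hippocampus, for example during exploration or a seizure, raises them within minutes.

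CREB binds the cAMP response element (CRE), whose full form reads TGACGTCA and whose short form reads TGACG or, on the other strand, CGTCA. Each full CRE holds both short forms. RefSeq promoter windows of GRCm38.p6, from 250 bases before the annotated start to 50 bases after it, were at hand for 27 of the 34 genes. Egr1, Egr3, Klf10, Ier2, Arc, Sik1 and Trib1 had none. A short CRE was found on either strand in 19 of these 27 genes (70.4%), compared to 23.0% of 27025 genes with a promoter, and a full CRE was found in 4 (14.8%, compared to 2.03%), namely Btg2, Dusp1, Arl4d and Maff. The serum response element core, known as the CArG box, was found in Egr2 and Dusp5 (7.41%, compared to 1.81% of all genes). TATA boxes (TATAAA or TTTATA) were found in 5 genes (18.5%, compared to 15.7%), an AP-1 site (TGAGTCA or TGACTCA) in Csrnp1 (3.7%, compared to 5.95%) and an EGR site (GCGTGGGCG or CGCCCACGC) in Maff (3.7%, compared to 0.707%). These matches are a description of letters and not of binding.

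The promoter windows of the 4 genes on which the genotype comparisons turned most, Npas4, Btg2, Dusp1 and Ier5, and of Fos, the best known gene of the set, are printed 5′ to 3′ on the strand of the gene with short and full CREs in capitals. They lie at chr19:4989922-4990221, - strand for Npas4, chr1:134079106-134079405, - strand for Btg2, chr17:26508423-26508722, - strand for Dusp1, chr1:155099587-155099886, - strand for Ier5 and chr12:85473640-85473939, + strand for Fos.
Npas4: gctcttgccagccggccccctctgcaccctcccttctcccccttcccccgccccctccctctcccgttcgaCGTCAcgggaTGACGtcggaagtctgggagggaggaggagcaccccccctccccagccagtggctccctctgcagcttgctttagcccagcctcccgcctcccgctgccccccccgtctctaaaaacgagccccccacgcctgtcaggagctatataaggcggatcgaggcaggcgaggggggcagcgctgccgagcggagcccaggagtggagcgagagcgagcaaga
Btg2: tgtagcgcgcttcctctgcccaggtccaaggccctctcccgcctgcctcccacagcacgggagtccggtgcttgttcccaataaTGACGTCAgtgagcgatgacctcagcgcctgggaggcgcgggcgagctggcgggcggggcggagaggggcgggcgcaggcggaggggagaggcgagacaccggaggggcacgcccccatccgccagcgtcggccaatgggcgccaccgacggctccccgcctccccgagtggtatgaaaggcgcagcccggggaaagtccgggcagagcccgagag
Dusp1: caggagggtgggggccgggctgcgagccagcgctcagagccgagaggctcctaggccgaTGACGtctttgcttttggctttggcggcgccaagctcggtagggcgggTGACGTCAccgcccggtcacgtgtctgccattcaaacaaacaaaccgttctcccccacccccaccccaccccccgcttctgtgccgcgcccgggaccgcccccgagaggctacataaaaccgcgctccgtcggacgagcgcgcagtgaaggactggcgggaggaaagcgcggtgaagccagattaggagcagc
Ier5: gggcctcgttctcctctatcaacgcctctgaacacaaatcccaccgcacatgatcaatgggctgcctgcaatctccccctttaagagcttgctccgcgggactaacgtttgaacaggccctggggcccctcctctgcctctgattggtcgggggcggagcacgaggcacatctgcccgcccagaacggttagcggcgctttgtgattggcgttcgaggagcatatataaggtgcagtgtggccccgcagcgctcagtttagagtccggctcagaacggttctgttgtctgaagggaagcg
Fos: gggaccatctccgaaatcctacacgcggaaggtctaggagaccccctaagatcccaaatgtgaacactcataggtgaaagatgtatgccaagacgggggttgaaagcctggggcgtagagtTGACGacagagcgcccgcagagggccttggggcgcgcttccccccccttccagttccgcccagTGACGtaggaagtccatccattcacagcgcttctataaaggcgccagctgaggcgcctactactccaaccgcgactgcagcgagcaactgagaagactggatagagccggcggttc
Npas4 held short CREs in opposite orientation from 179 to 165 bases before the start. Btg2 held a full CRE from 166 to 159 bases before the start, and Dusp1 a full CRE from 143 to 136 bases before the start with a further short CRE upstream. Fos held short CREs that began 129 and 66 bases before its start. No CRE letters, CArG box, AP-1 site or EGR site were found in the window of Ier5.

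Total counts ranged from 12169474 to 25331954 per library, and 3 counts corresponded to 0.118 to 0.247 CPM, the read count scaled to the library total. In the neocortex, cTKO library 5 held 718 CPM of a list of transcripts of embryonic tissue against at most 10.5 CPM in any control, and in the hippocampus cTKO library 4 held 459 CPM against at most 6.25 CPM. The 7 markers of excitatory neurons summed to 7463 to 8283 CPM in neocortical controls. In neocortical cTKO libraries they summed to 6704 to 7443 CPM, apart from library 3 at 7994 CPM. In the hippocampus they summed to 9431 to 10784 CPM in controls and 8436 to 10376 CPM in cTKO libraries, again with library 3 highest. Gene by gene, 3 of the 7 had log2 fold changes below 0 in each region, with medians of 0.044 (neocortex) and 0.071 (hippocampus). Of the 7, 1 was called in the neocortex, higher in cTKO mice (0.0867% of all genes), and none in the hippocampus. In the hippocampus, all 4 choroid plexus markers had log2 fold changes below 0 (median -1.66, none called, 3 at an unadjusted p under 0.05), and they summed to 71.4 to 2633 CPM in controls and 107 to 580 CPM in cTKO libraries. Of the 5 astrocyte markers there, 2 had values below 0, the median was 0.016 and none was called. Gfap had a value of 1.58 (FDR = 0.163) and Gjb6 of -0.35 (FDR = 0.0927). The part of these cells in the values of the set was not tested. The numbers 1 to 5 name libraries in each group. Both regions came from the same 10 mice per the methods, but no source states that a number marks a mouse. Over all genes, deviations from the group means correlated between the regions for same-numbered controls (r from 0.115 to 0.348) and for cTKO 1, 2 and 3 (0.317 to 0.375), but not for cTKO 4 (-0.047) and cTKO 5 (-0.091), while neocortical cTKO 5 and hippocampal cTKO 4 had r = 0.593. Neocortical cTKO 5 held Y-linked transcripts (14.5 CPM) beside Xist (1279.8 CPM), whereas hippocampal cTKO 5 held 0.331 CPM of the former. Hippocampal cTKO 4 held 138 CPM of Y-linked transcripts and 0.644 CPM of Xist. The sex called from these transcripts was the same in both regions for every number, cTKO 4 and 5 included. All values are CPM scaled by the trimmed mean of M-values (TMM), and a change is a log2 fold change of cTKO mice compared to controls from the edgeR quasi-likelihood test, with the FDR adjusted over all tested genes. Atf3, a stress-responsive bZIP factor, did not exceed 1 CPM in 5 libraries of either region and was not tested, which left 33 genes in each region.

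In the neocortex, 2 of the 33 tested genes, Npas4 and Btg2, were DEGs at an FDR under 0.05, both lower in cTKO mice. Of the 13843 tested genes, 0.188% were DEGs in either direction, with 0.101% lower and 0.0867% higher. The study had already reported Npas4 and Btg2 as lower in both regions of these mice. The set was listed with that known, so the numbers called are a description and no independent support. In the hippocampus, Npas4 was again lower and Ier5 was higher, so that 2 of 33 were DEGs compared to 0.489% of 13702 tested genes, of which 0.175% were lower and 0.314% higher. As alternatives, edgeR's exact test, its likelihood ratio test and DESeq2 each called Npas4 and Btg2 in the neocortex (where they called 1.18%, 1.21% and 1.6% of all genes), and each called Npas4, Btg2, Dusp1 and Ier5 in the hippocampus (1.88%, 1.89% and 2.42%). At an unadjusted p under 0.05 there were 5 genes in the neocortex, all lower in cTKO mice, compared to 4.86% of all genes with a lower and 5.57% with a higher level. The hippocampus held 8 at that level, of which 2 were higher, compared to 5.88% of all genes with a lower and 6.13% with a higher level. Because whole tissue was sequenced, fewer cells that express a gene and less RNA per cell cannot be told apart.

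**Figure D1:**
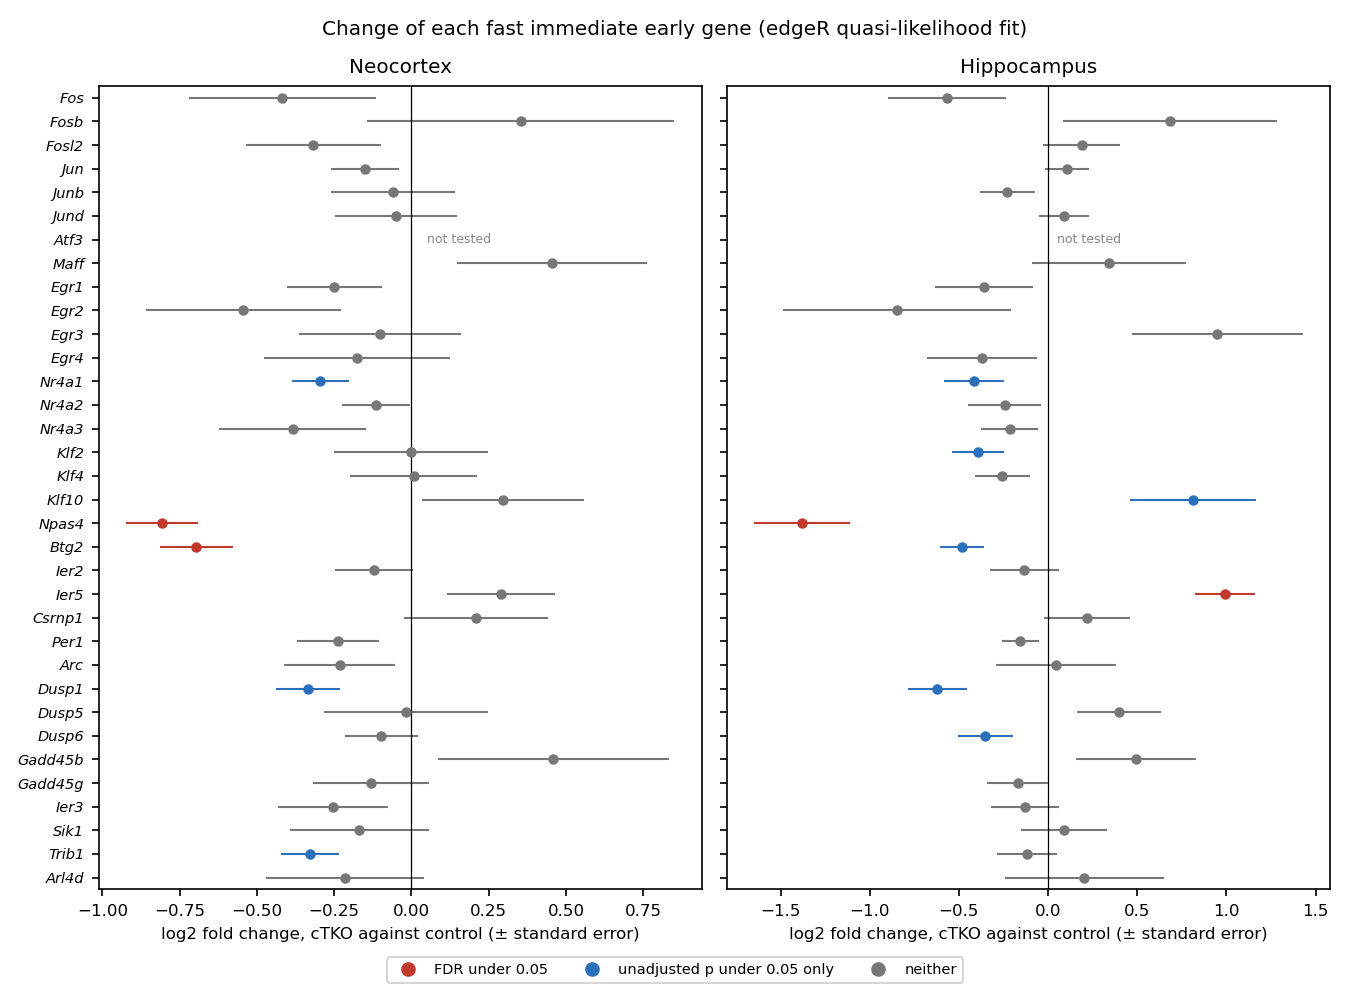
Log2 fold change of the 33 tested genes in cTKO mice compared to controls (x axis, points, with the standard error as a bar; Atf3 is marked as not tested) in the neocortex and hippocampus, by gene (y axis). Red points pass an FDR of 0.05 and blue points only an unadjusted p of 0.05. Npas4 and Btg2 stand to the left in the neocortex, and Npas4 and Ier5 stand on opposite sides in the hippocampus.

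Npas4 encodes a bHLH-PAS transcription factor that is induced selectively in neurons by depolarization and shapes inhibitory synapses. The neocortical controls 1 to 5 held 47.7, 52.1, 38.8, 41.8 and 59.4 CPM, and the cTKO libraries 1 to 5 held 27.9, 27.1, 28.4, 31.2 and 22.2 CPM. Every cTKO library was below every control (log2 fold change -0.81, SE 0.117, FDR = 0.0144). The hippocampal controls held 23.1, 19.6, 9.57, 13.8 and 19.7 CPM, and the cTKO libraries held 6.34, 5.90, 9.25, 8.02 and 3.42 CPM. The groups again did not overlap (log2 fold change -1.38, SE 0.267, FDR = 0.0434), although the highest cTKO library and the lowest control were close to each other. In the 10 fits of a region that each dropped 1 library, the neocortical call held in 7 and was lost without control 1, control 2 or cTKO 2 (FDR up to 0.0661). It was also lost in 1 fit of all 20 libraries and with a block by library number (FDR up to 0.167). The hippocampal call held in only 3 of 10, those without control 3, cTKO 3 or cTKO 5 (FDR up to 0.135 in the rest). It was also lost with the robust fit (FDR = 0.0576), with sex (0.0562) or RNA integrity (0.108) as a covariate, and with the block by library number.

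Btg2 encodes an antiproliferative protein that binds the mRNA deadenylation machinery. In the neocortex, the controls held 20.7, 24.9, 18.6, 18.5 and 21.7 CPM. The cTKO libraries held 13.4, 10.7, 14.7, 14.9 and 10.6 CPM and lay below every control (log2 fold change -0.70, SE 0.119, FDR = 0.0352). In the hippocampus, 18.2, 21.8, 15.8, 17.8 and 17.5 CPM in controls stood against 11.1, 13.8, 14.5, 15.2 and 10.5 CPM in cTKO libraries. There too the groups did not overlap, but the quasi-likelihood test did not call the gene (log2 fold change -0.48, SE 0.123, FDR = 0.125). The neocortical call held in 3 of 10 fits with 1 library left out, those without cTKO 3, 4 or 5. It was lost without any 1 of the 5 controls, cTKO 1 or cTKO 2 (FDR up to 0.120). The call was also lost with RNA integrity as a covariate (FDR = 0.116) and with the block by library number.

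Ier5 encodes a nuclear protein of the immediate early response family. The hippocampal controls lay close together at 29.7, 31.3, 27.3, 32.4 and 32 CPM. All 5 cTKO libraries were higher, at 62.7, 55.3, 93.1, 47.6 and 45.1 CPM, with library 3 highest (log2 fold change 0.99, SE 0.168, FDR = 0.0210). In the neocortex, the controls held 102, 74.3, 58, 59.9 and 70.1 CPM and the cTKO libraries 95.5, 85.2, 126, 69.3 and 69.8 CPM. These groups overlapped (log2 fold change 0.29, SE 0.174, FDR = 0.607). The hippocampal call held in 4 of 10 fits with 1 library left out and was lost without any 1 of the 5 controls or cTKO 2 (FDR up to 0.0786), while the change ranged from 0.79, without cTKO 3, to 1.08. It was also lost with RNA integrity as a covariate (FDR = 0.0524) and with the block by library number. The effect in the hippocampus exceeded that in the neocortex by 0.71 on the log2 scale (SE 0.267, unadjusted p = 0.0145, FDR = 0.9999 in the edgeR fit of all 20 libraries), and so the difference between regions was not called.

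The remaining nuclear regulators were not called in either region. Ier2, a small nuclear protein of the same family as Ier5, had log2 fold changes of -0.12 and -0.13 in the neocortex and hippocampus. Csrnp1, a cysteine- and serine-rich nuclear protein, had values of 0.21 and 0.22. For Per1, a circadian clock gene that also responds to CREB, they were -0.24 and -0.16. Across the 6 nuclear regulators, 4 in each region had a value below 0.

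**Figure D2:**
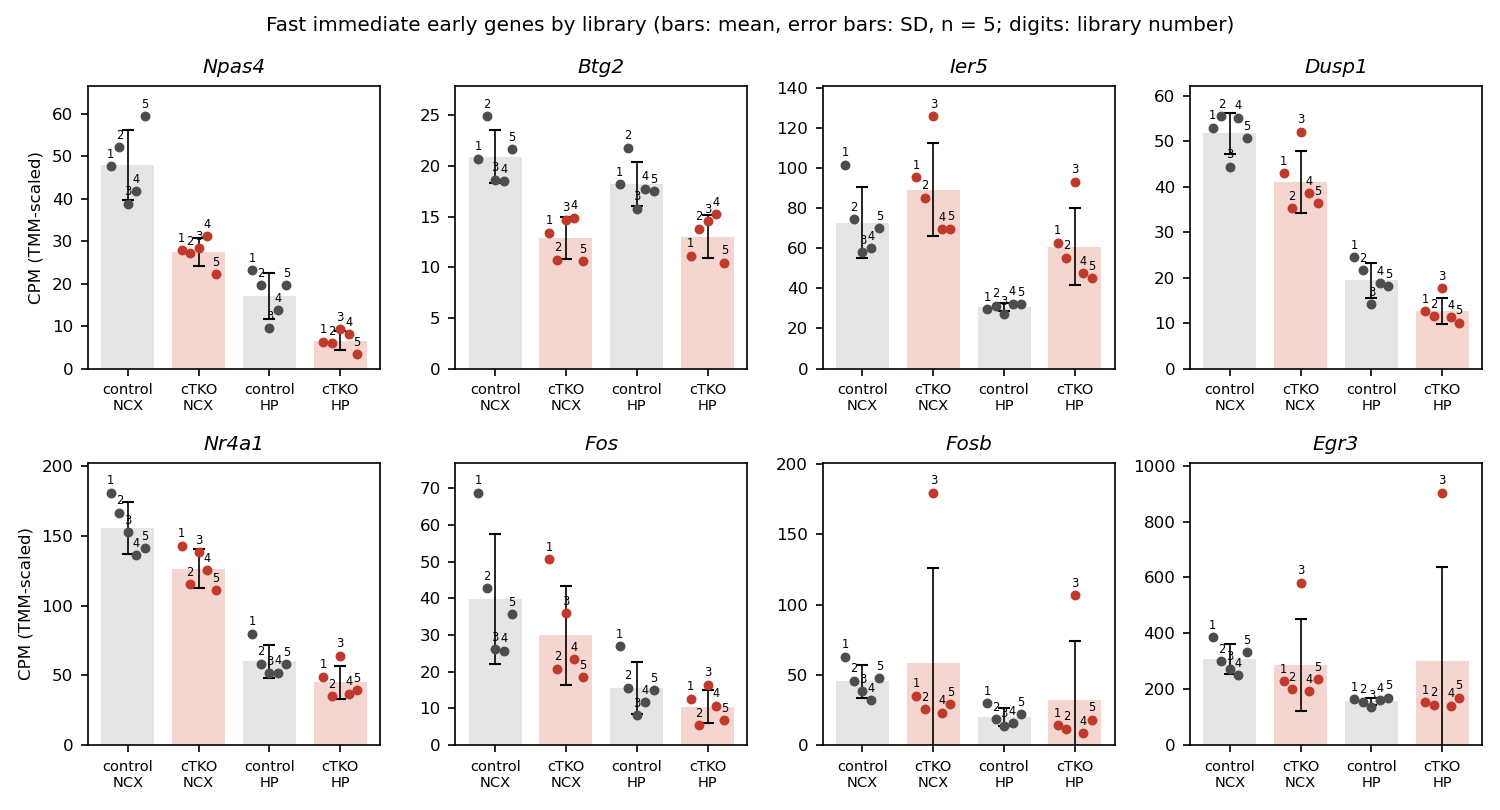
TMM-scaled CPM (y axis) of 8 fast immediate early genes in each library, by genotype and region (x axis; NCX, neocortex; HP, hippocampus). Bars are means, error bars are SD (n = 5; lower ends under 0 are not drawn), points are libraries and digits are their numbers. Npas4 and Btg2 separate the genotypes in both regions and Ier5 in the hippocampus, whereas cTKO library 3 stands far above the rest for Fosb and Egr3.

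The MAP kinase phosphatases dampen the MAP kinase signal, which is only a part of what induces the set. Dusp1, which acts on p38, JNK and ERK in the nucleus, was at 52.9, 55.5, 44.4, 55.2 and 50.7 CPM in neocortical controls and at 42.9, 35.2, 52.1, 38.5 and 36.4 CPM in cTKO libraries. Only cTKO library 3 reached into the control range (log2 fold change -0.33, SE 0.104, FDR = 0.254). In the hippocampus, 24.4, 21.7, 14.2, 18.8 and 18.1 CPM in controls compared to 12.6, 11.6, 17.6, 11.3 and 10.1 CPM in cTKO libraries, again with only cTKO library 3 inside the control range (log2 fold change -0.62, SE 0.166, FDR = 0.147). Without cTKO library 3 the gene was a DEG in both regions (log2 fold change -0.43, FDR = 0.0297 in the neocortex, and -0.77, FDR = 0.0429 in the hippocampus). Leaving out the only cTKO library inside the control range separates the groups by itself. Of the 10 fits of a region with 1 library left out, only 1 called Dusp1 in each region. The FDR of the rest was up to 0.494 in the neocortex and 0.312 in the hippocampus. Dusp5 and Dusp6, which act on ERK, were not called: Dusp6 had log2 fold changes of -0.10 and -0.35, and Dusp5 of -0.019 and 0.40, in the neocortex and hippocampus.

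Nr4a1, an orphan nuclear receptor, was at 181, 167, 153, 136 and 141 CPM in neocortical controls and 143, 115, 138, 125 and 111 CPM in cTKO libraries, and the groups overlapped (log2 fold change -0.29, SE 0.0912, FDR = 0.253). In the hippocampus it was at 80.0, 58.4, 51.7, 52 and 58.1 CPM in controls, and 48.9, 35, 64.2, 36.9 and 39.5 CPM in cTKO libraries, where only cTKO library 3 lay inside the control range (log2 fold change -0.42, SE 0.168, FDR = 0.349). Its relatives Nr4a2 and Nr4a3 had log2 fold changes of -0.12 and -0.38 in the neocortex and of -0.24 and -0.22 in the hippocampus. All 3 receptors thus had values below 0 in each region and none was called.

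The EGR zinc finger factors couple growth factor and synaptic signals to later transcription, and none of the 4 was called. Egr1, long used as a marker of neuronal activity, had log2 fold changes of -0.25 in the neocortex and -0.36 in the hippocampus. Egr2 was low, at 19 ± 10.3 CPM in neocortical controls and 13.1 ± 5.67 CPM in cTKO libraries (SD, n = 5; log2 fold change -0.54, SE 0.316, FDR = 0.591). In the hippocampus, it was at 7.52, 2.48, 0.907, 2.27 and 3.07 CPM in controls, and at 2.29, 0.568, 4.73, 0.430 and 0.886 CPM in cTKO libraries, with overlapping groups (log2 fold change -0.85, SE 0.638, FDR = 0.669). Part of Egr2 overlaps the annotated gene Gm32255, and the strand setting of the read counting is not given in the sources used here. Egr4 had values of -0.18 and -0.37.

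Egr3 had a value that 1 library set, as did Fosb and Gadd45b, which are described below. The neocortical controls held 386, 301, 273, 251 and 333 CPM and the cTKO libraries 229.6, 199.8, 581, 193 and 235 CPM. In the hippocampus, controls at 165, 155, 135, 159.7 and 169.6 CPM stood against 154, 144, 903, 140.5 and 169.6 CPM. All but the third cTKO library were below every neocortical control and level with the hippocampal controls. Its log2 fold change was -0.10 (FDR = 0.930) in the neocortex and 0.95 (FDR = 0.463) in the hippocampus with all libraries, and -0.52 (FDR = 0.0505) and -0.044 (FDR = 0.891) without cTKO library 3.

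Among the AP-1 and related bZIP factors, none of the 7 tested genes was called, with FDR values of 0.655 or more among neocortical and 0.541 or more among hippocampal changes. Fos was at 68.7, 42.8, 26.1, 25.7 and 35.7 CPM in neocortical controls and 50.6, 20.8, 36, 23.5 and 18.5 CPM in cTKO libraries (log2 fold change -0.42, SE 0.302, FDR = 0.681). In the hippocampus its values were 26.9, 15.6, 8.07, 11.7 and 15 CPM in controls, and 12.6, 5.33, 16.5, 10.7 and 6.79 CPM in cTKO libraries (log2 fold change -0.57, SE 0.331, FDR = 0.541). Library 1 was the highest of its group among controls in both regions, and the genotypes overlapped.

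Fosb, whose product accumulates with repeated stimulation, was singled out after its values were seen. Its neocortical level was 63, 45.8, 38.3, 32.1 and 47.6 CPM in controls, and 35.1, 25.5, 179.5, 23 and 29 CPM in cTKO libraries. In the hippocampus it was 29.6, 18.3, 13.7, 15.6 and 22.2 CPM in controls, and 14.2, 11.7, 107, 8.55 and 18 CPM in cTKO libraries. Library 3 was 6.37 times the mean of the other 4 cTKO libraries in the neocortex and 8.14 times in the hippocampus. The log2 fold change of 0.35 in the neocortex and 0.68 in the hippocampus became -0.69 (FDR = 0.0903) and -0.60 (FDR = 0.356) without it.

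Maff, a small MAF factor near the detection limit, was at 1.05 ± 0.276 CPM in neocortical controls and 1.48 ± 0.610 CPM in cTKO libraries (SD, n = 5; log2 fold change 0.46, SE 0.307, FDR = 0.655), and its hippocampal log2 fold change was 0.34 (FDR = 0.824). Jun, Junb, Jund and Fosl2, the other subunits from which AP-1 dimers form, had log2 fold changes from -0.32 to -0.050 in the neocortex and from -0.23 to 0.19 in the hippocampus. Atf3 ranged from 0.343 to 2.58 CPM across neocortical and from 0.468 to 7.11 CPM across hippocampal libraries, and cTKO library 3 was the highest in each region.

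The KLF zinc finger factors were not called. Klf10, a TGF-beta-inducible factor, was at 43.2, 34.2, 34.5, 38.8 and 30.8 CPM in hippocampal controls and 79.6, 37, 136, 32.3 and 34.1 CPM in cTKO libraries, with libraries 1 and 3 above every control and the other 3 between 32.3 and 37.0 CPM, inside the control range (log2 fold change 0.81, SE 0.353, FDR = 0.383). Its neocortical log2 fold change was 0.30 (FDR = 0.747). Klf10 overlaps the annotated gene Gm35248. Klf2, which is also expressed in endothelial cells, had the hippocampal log2 fold change -0.40 (FDR = 0.301). There, 7 of 8 endothelial marker genes had values below 0 (median -0.13), and their summed level ranged from 165 to 229 CPM in controls and from 135 to 202 CPM in cTKO libraries. The part of the endothelial transcripts in the Klf2 value was not tested. Klf4 had values of 0.0067 and -0.26 in the neocortex and hippocampus.

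Arc, which drives the internalization of AMPA receptors at synapses, was at 539.7, 399, 281, 316 and 331 CPM in neocortical controls and 412, 288, 349.7, 320.2 and 217 CPM in cTKO libraries (log2 fold change -0.23, FDR = 0.700). In the hippocampus, controls at 178, 163, 115, 161 and 153 CPM compared to 171, 92.1, 348, 96.2 and 87.7 CPM in cTKO libraries. There the cTKO libraries lay on both sides of the controls, and the log2 fold change was 0.044 with all libraries and -0.46 without library 3 (FDR = 0.982 and 0.365).

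Of the stress and growth arrest genes, Gadd45b, which takes part in active DNA demethylation in neurons, was at 12.7, 9.94, 10.9, 12.1 and 8.99 CPM in neocortical controls and 12.8, 8.38, 37.7, 8.42 and 8.25 CPM in cTKO libraries (log2 fold change 0.46, SE 0.374, FDR = 0.722). In the hippocampus it was at 11.2, 10.8, 9.11, 9.38 and 7.08 CPM and 12.5, 10.1, 29.4, 7.26 and 7.51 CPM (log2 fold change 0.49, SE 0.337, FDR = 0.628). The third cTKO library alone stood far above the controls, and without it the log2 fold changes were -0.20 and -0.025. Gadd45g and Ier3 had values between -0.25 and -0.13 in both regions.

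In the last group, Trib1, a pseudokinase that scaffolds protein degradation, was at 35.8, 31.5, 30.4, 28.3 and 28.6 CPM in neocortical controls and 28, 21.2, 23.1, 25.7 and 25.1 CPM in cTKO libraries. These groups did not overlap, but the gene was not called (log2 fold change -0.33, SE 0.0928, FDR = 0.200), and its hippocampal log2 fold change was -0.12. The salt-inducible kinase Sik1, which restrains CREB coactivators, had log2 fold changes of -0.17 and 0.091. For the small GTPase Arl4d they were -0.22 and 0.20 with all libraries and -0.54 and -0.49 without cTKO library 3.

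Counted over the set, the log2 fold change was below 0 for 26 of 33 genes in the neocortex, compared to 46.9% of all tested genes, and for 19 of 33 in the hippocampus, compared to 48.4%. The neocortical median was -0.15 and the hippocampal median -0.13, against 0.0090 and 0.0049 over all tested genes. The genotypes did not overlap for 3 genes in the neocortex (Npas4, Btg2 and Trib1, all lower in cTKO mice), compared to 2.41% of all tested genes (1.5% with cTKO below and 0.903% with cTKO above). In the hippocampus they did not overlap for Npas4 and Btg2, lower in cTKO mice, and for Ier5, higher, compared to 3.17% of all genes (1.25% with cTKO below and 1.93% with cTKO above). A 2-sided exact permutation test gave each of these p = 0.00794, the smallest value that a split of 5 against 5 allows, and over all genes the smallest adjusted values were 0.330 (neocortex) and 0.250 (hippocampus). The genes of the set share libraries and inducing signals and are not independent replicates. Npas4 and Btg2 were listed with their changes in these data known, so these counts are a description.

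A region by genotype interaction called none of the 34 genes tested, compared to 0.0564% of 14192 genes, in edgeR and likewise in the likelihood ratio test and DESeq2, and only Ier5 had an unadjusted p under 0.05 (3.75% of all genes). In the fit that took genotype and library number as a mouse, 0 of 34 were called (0.127% of all genes), 6 had an unadjusted p under 0.05, of which 4 were above 0 (4.66% of all genes), and the interaction of Ier5 was 0.67 (SE 0.135, FDR = 0.0970).

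A single library stood high in a part of the set. In the neocortex, cTKO library 3 was the highest of its group for 19 of the 34 genes, compared to 27.4% of all tested genes. In the hippocampus it was the highest for 26 of 34, compared to 19.3%. It was the lowest for 2 and 0 of the 34 genes in the neocortex and hippocampus, compared to 27.8% and 18.1% of all tested genes. It was at least 2 times the mean of the other 4 cTKO libraries for 7 genes in the neocortex (Fosb, Jund, Atf3, Egr3, Dusp5, Gadd45b and Arl4d) and for 13 in the hippocampus. The share of all genes at 2 times or more was not counted. Shared between the neocortical and hippocampal lists were Fosb, Atf3, Egr3, Gadd45b and Arl4d, which were 71.4% of the first and 38.5% of the second. Npas4 was not among them, at 1.05 times the others in the neocortex and 1.56 times in the hippocampus, where library 3 was the highest cTKO library, and it lay below every control in both regions. Egr1 in the neocortex, at 0.778 times the others, and Jun in the hippocampus, at 0.898 times, were its lowest ratios. The same library also held the highest summed level of the later activity-regulated genes among cTKO libraries (2777 CPM in the neocortex and 2961 CPM in the hippocampus, with the next at 2145 and 1851 CPM) and of the 4 oligodendrocyte markers (5291 and 6357 CPM, with the next at 3534 and 5868 CPM). The part of these in the values of the set was not tested.

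Control library 1 also stood high in a part of the set. It was the highest of its group for 27 of 34 genes in the neocortex and 24 of 34 in the hippocampus, compared to 23.8% and 17.7% of all tested genes. At least 2 times the mean of the other 4 controls were Fos, Egr2, Egr4 and Nr4a3 in the neocortex and Fos, Maff, Egr1, Egr2 and Egr4 in the hippocampus. None of these overlapped with the 7 genes of cTKO library 3 in the neocortex. In the hippocampus, Egr1, Egr2 and Egr4 were shared with its 13 genes (60.0% of the control list and 23.1% of the cTKO list). The share of all genes at 2 times or more was not counted for control library 1 either.

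**Figure D3:**
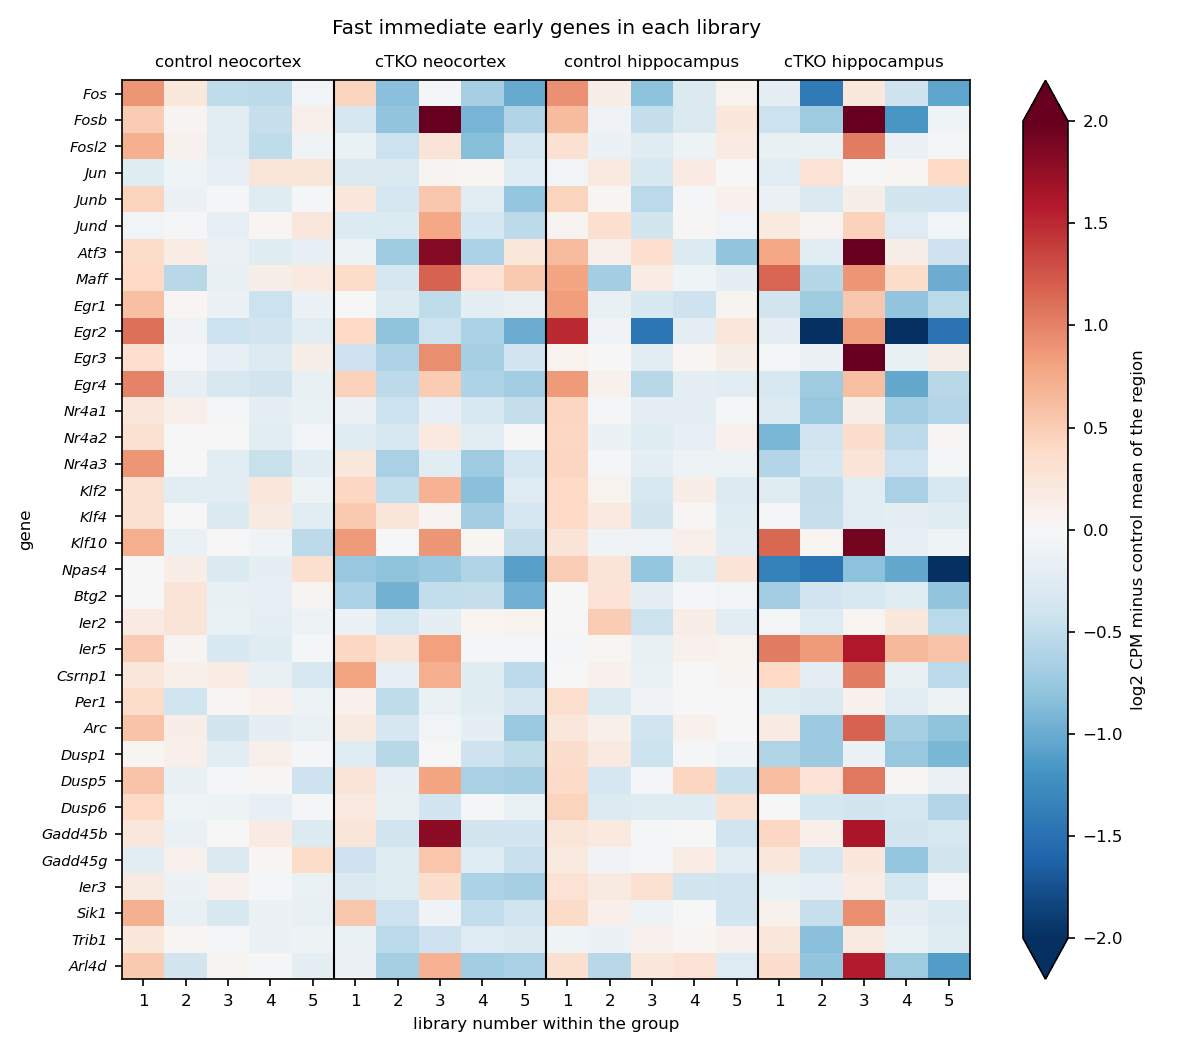
Difference of log2 CPM from the control mean of the same region (colour) for the 34 genes (rows) in each of the 20 libraries (columns, with the library number in its group). Red is above and blue is below the control mean, and the colour scale ends at 2 and -2. Control library 1 and cTKO library 3 are red for many genes in both regions, while Npas4 and Btg2 are blue in all 10 cTKO libraries.

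Leaving cTKO library 3 out, an alternative planned for each library, gave 28 of 33 genes below 0 in the neocortex and 28 of 32 in the hippocampus, compared to 46.7% and 48.1% of all tested genes, with medians of -0.29 and -0.30. At an unadjusted p under 0.05 there were then 12 and 14 genes, compared to 13.9% and 11.8% of all genes. The DEGs of the set were Btg2, Dusp1 and Npas4 in the neocortex (0.87% of all genes) and Dusp1, Npas4 and Ier5 in the hippocampus (0.52%). When the library with embryonic transcripts was left out as well, chosen after seeing the data, they were Btg2, Dusp1, Egr3 and Npas4 in the neocortex (2.94% of all genes) and Ier5 and Npas4 in the hippocampus (0.441%). Without control library 1, 20 of 33 genes were below 0 in the neocortex and 19 of 32 in the hippocampus, compared to 48.1% and 49.5% of all tested genes, with medians of -0.063 and -0.090. None of the set was then called in either region by the edgeR quasi-likelihood test (0.0507% and 0.147% of all genes), with 7 and 5 genes at an unadjusted p under 0.05 (9.77% and 10.3%), and no other tool was run on these libraries. The same count of 0 was found without neocortical control 2 or cTKO 2, and without hippocampal control 2, 4 or 5 or cTKO 2 (0.0508% to 0.285% of all genes). These fits gave 5 to 7 genes at an unadjusted p under 0.05, compared to 8.52% to 11.3% of all genes.

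**Figure D4:**
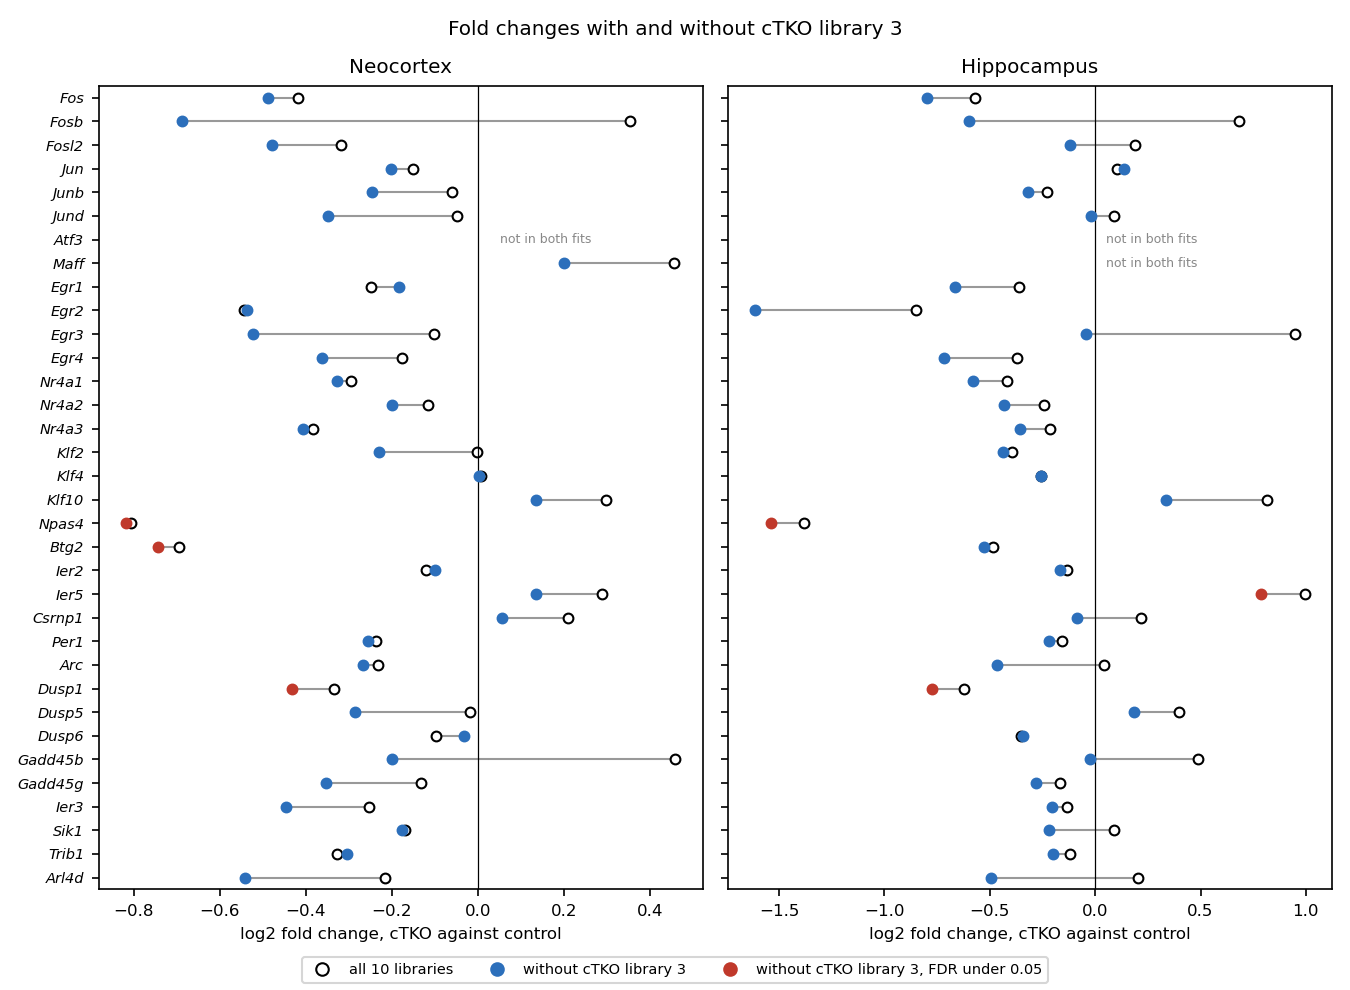
Log2 fold change in cTKO mice compared to controls (x axis) by gene (y axis) with all 10 libraries of a region (open circles) and without cTKO library 3 (filled circles, red where the FDR is under 0.05). Most filled circles lie to the left of the open ones and below 0, with long shifts for Fosb, Egr3 and Gadd45b. Ier5 stays to the right in the hippocampus.

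The mean log2 CPM over the 34 genes was 5.04 ± 0.224 in control and 4.88 ± 0.354 in cTKO neocortex (SD, n = 5), and 4.42 ± 0.232 and 4.30 ± 0.478 in the hippocampus. The difference of -0.17 in the neocortex and -0.12 in the hippocampus was smaller than the spread between libraries. Without cTKO library 3 the differences were -0.30 and -0.32, and without control library 1 they were -0.070 and -0.028. The median over the 34 genes in place of the mean differed by -0.36 in each region, with an SD of 0.317 and 0.404 (control and cTKO) in the neocortex and 0.282 and 0.509 in the hippocampus. Across libraries of the same number, with the mean of each genotype and region subtracted, the neocortical and hippocampal values of this mean had Pearson's r = 0.962 and Spearman's rho = 0.988 (n = 10 numbers). Without the 2 numbers that stood highest, r was 0.910 and rho 0.976 (n = 8), and without cTKO 4 and 5, chosen after seeing the data, r was 0.952 and rho 0.976 (n = 8). Single genes of the set had a median r of 0.690 between the regions, compared to 0.102 over the 13469 genes tested in both. These correlations describe 10 numbers whose link to single mice is not stated, and which over all genes did not hold for cTKO 4 and 5.

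**Figure D5:**
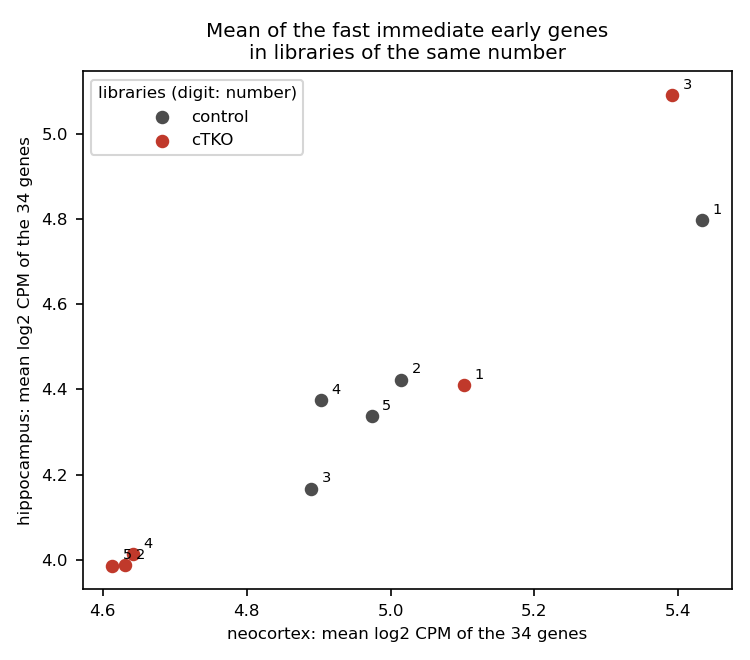
Mean log2 CPM of the 34 genes in the neocortex (x axis) and the hippocampus (y axis) for libraries of the same genotype and number (points, digits). Control 1 and cTKO 3 lie at the upper right and cTKO 2, 4 and 5 at the lower left, below every control on both axes.

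Within a region, the genes of the set moved together from library to library. After the genotype means were subtracted, the median r over pairs of the 33 genes was 0.502 for neocortical and 0.553 for hippocampal libraries (n = 10 libraries), while over pairs of all tested genes it was near 0. Egr4 in the neocortex (r = 0.964) and Nr4a1 in the hippocampus (r = 0.954) followed the mean of the others most closely, and Jun followed it least (-0.095 and -0.31). Without cTKO library 3 and control library 1 the median over pairs was 0.392 and 0.247 (n = 8). The spread itself was also wide, with a median residual SD of 0.384 and 0.393 on the log2 scale, compared to 0.158 and 0.164 over all tested genes. The points share libraries, depth and dissection, and these correlations are given as a description.

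Genes outside the set whose residuals followed its mean most closely were Dusp14 (r = 0.963), Tspan3 (r = 0.952), Slc35f5 (r = 0.949), Sertad1 (r = 0.948) and Bahd1 (r = 0.945) in the neocortex. In the hippocampus they were Fgfr1 (r = 0.965), Gpr3 (r = 0.955), Bag3 (r = 0.938), Acvr1 (r = 0.934) and Sstr2 (r = 0.930), each over 10 libraries. Of these 10 genes, only Acvr1 was a DEG in its region (log2 fold change 0.62, FDR = 0.0240).

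In control mice, 24 of the 33 tested genes differed between the regions, compared to 59.1% of 13832 genes. Of these, 21 were lower in the hippocampus (29.2% of all genes) and 3, Jun, Nr4a3 and Gadd45g, were higher (29.8%). The largest differences were those of Egr2 (log2 fold change -2.58, SE 0.412, FDR = 7.03e-05) and Egr1 (-2.16, SE 0.226, FDR = 9.96e-07), and Npas4 was also lower (-1.49, SE 0.184, FDR = 5.55e-06). Blocking by library number raised this to 29 genes (61.4% of all genes), with Btg2, Dusp5, Fosl2, Junb and Klf4 in addition. The other values of this comparison come from the fit without that block. RNA was extracted from the regions with different kits, so that region and kit cannot be told apart. Per kilobase of exon, Egr1 (154 CPM per kb) and Arc (122) stood highest in control neocortex, followed by Jund (73.6) and Egr3 (70.1). In control hippocampus, Jund (59.4), Arc (50.4) and Jun (47.1) led, and Atf3 and Maff were lowest, with Atf3 at 0.300 in the neocortex and Maff at 0.414 in the hippocampus.

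The later activity-regulated genes also respond to neuronal activity, and which of them depend on the fast factors was not tested. Of 20 such genes, none was called in the neocortex by the quasi-likelihood test, 6 had an unadjusted p under 0.05 (1444 of all 13843 genes), and DESeq2 and both other edgeR tests each called Bdnf, Inhba, Rgs2 and Vgf, all higher. In the hippocampus only Bdnf was called, with 43.3 ± 2.84 CPM in the controls against 100.3 ± 40.7 CPM in the knockouts (SD, n = 5; log2 fold change 1.21, SE 0.225, FDR = 0.0347), and 10 had an unadjusted p under 0.05 (1646 of all 13702 genes). The other tools each called Bdnf, Nptx2, Ptgs2 and Scg2 there, all higher. The list had a median log2 fold change of 0.20 (neocortex) and 0.33 (hippocampus), with 4 and 3 of 20 genes below 0, compared to 46.9% and 48.4% of all genes. Without cTKO library 3, the medians were 0.079 and 0.16, with 6 genes below 0 in each region, and Bdnf remained the DEG of the hippocampus. Nptx2, which clusters AMPA receptors, had the largest value in both regions (1.23, FDR = 0.338, and 1.72, FDR = 0.125), and cTKO library 3 was again the highest. The lowest values were those of Homer1 in the neocortex (-0.22, FDR = 0.515) and Syt4 in the hippocampus (-0.15, FDR = 0.608). No test compared this list with the fast genes.

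The 25 genes upstream of the set, which encode its kinases, calcium channels, NMDA receptor subunits and bound factors, had median log2 fold changes of -0.028 in the neocortex and -0.011 in the hippocampus. None was called by the quasi-likelihood test, with 4 at an unadjusted p under 0.05 in each region, where 1444 of 13843 and 1646 of 13702 genes were at that level. In the neocortex, DESeq2 and both other edgeR tests each called Camk4, the nuclear CaM kinase that phosphorylates CREB (log2 fold change -0.40, FDR = 0.0712 in the quasi-likelihood test), and Camk2a (-0.32, FDR = 0.162), both lower. The Cre transgene carries the promoter of Camk2a. In the hippocampus, only DESeq2 called a gene of the list, Mef2c (0.24, FDR = 0.155 in the quasi-likelihood test), whereas the lowest value was that of Mapk3 (-0.28, FDR = 0.349). Mef2a had the highest value in the neocortex (0.12, FDR = 0.543). Creb1 was at -0.086 and 0.0083.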

How the data were processed

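From neocortical and hippocampal RNA of both genotypes the authors prepared poly-A libraries with the TruSeq kit, sequenced single-end reads, mapped them to mm10 with STAR (2.5.4a) and counted them with HTSeq. The deposited values are raw counts per gene symbol for 20 libraries, 5 per genotype and region, and no columns were pooled. Files gave total counts of 12169474 to 25331954 per library, and the limit of 3 counts covers counting error only. No pair of replicates held identical values.

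Genes with more than 1 CPM in at least 5 libraries of a region were kept, TMM factors were computed, and genotypes were compared in each region by the edgeR (4.0.16) quasi-likelihood test in R 4.3.3, with Benjamini-Hochberg adjustment over all tested genes (FDR under 0.05). The interaction was fitted over all 20 libraries, and regions were compared in the control libraries. Neither main fit used the library number, so regions of the same mice entered as separate samples. All same-numbered control pairs deviated together (r from 0.115 to 0.348). The number pairs these libraries from the data and not from a label, and it did not do so for cTKO 4 and 5. Log2 CPM used a prior count of 2. Replicates are separate mice per the study's methods. Alternatives were the edgeR exact and likelihood ratio tests, DESeq2 (1.42.0), other scaling, filters and covariates (sex called from counts, and RNA integrity), a block by library number, and each library left out. Scripts were tested on simulated data.

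The genes and lists were chosen with earlier results of these data known. Genes were named if they passed an FDR of 0.05 in any of the 4 tests, had an unadjusted p under 0.05 in both regions, were among the 5 largest changes of a region or were Npas4 or Btg2, and others were described by group. Gene positions and promoters are from RefSeq (GRCm38.p6) and exon lengths from GENCODE.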

Additional observations from a re-analysis of the deposited data

Results flagged for a closer look

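In 14 of the 136 combinations of a gene and a group of 5 libraries, 1 library stood farther from its nearest neighbour on the log2 CPM scale than Dixon's 95% limit allows, and in each of them it was the highest. Chance alone flags about 1 in 20 groups, and the genes share libraries and are not independent. The same limit was not applied to genes outside the set, so the flags cannot be called particular to it. All 14 were library 3 of the cTKO mice or library 1 of the controls. On the CPM scale itself, tried after seeing the data, there were 22, these 14 and 8 more of the same libraries, among them Fosb, Atf3 and Gadd45b in the hippocampus of cTKO library 3.

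In the neocortex of cTKO mice, library 3 stood apart for Fosb (179.5 CPM), Jund (208 CPM), Egr3 (581 CPM), Gadd45b (37.7 CPM) and Gadd45g (17.3 CPM). In the hippocampus of cTKO mice, library 3 did so for Fosl2 (129.7 CPM) and Egr3 (903 CPM). Control library 1 stood apart in the neocortex for Junb (98.8 CPM), Egr2 (37.2 CPM), Egr4 (71.3 CPM), Dusp6 (95.9 CPM) and Sik1 (34.4 CPM), and in the hippocampus for Nr4a1 (80.0 CPM) and Nr4a3 (155 CPM). The causes were not tested.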

How the results depend on the processing

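Npas4, Btg2, Dusp1, Nr4a1 and Egr2 kept a value below 0, and Ier5, Klf10 and Maff a value above 0, in both regions under every alternative that gave them a value (22 each, but 16 for Maff in the hippocampus, where it fell under the filter in the rest). Npas4 passed an FDR of 0.05 in 17 of 22 alternatives in the neocortex (FDR from 8.28e-08 to 0.167) and 11 of 22 in the hippocampus (4.81e-05 to 0.135), Btg2 in 13 and 3, Dusp1 in 2 and 5, and Ier5 in 14 of 22 in the hippocampus (2.24e-06 to 0.0786). The number called in the set moved from 2 to 1 in the neocortex with 1 fit of all 20 libraries or RNA integrity as a covariate, and to 4 in the hippocampus with the exact test, the likelihood ratio test or DESeq2, 1 with the robust fit or sex as a covariate, and 0 with RNA integrity as a covariate (6 at an unadjusted p under 0.05). With the library number as a replicate block, 0 of the set were called in each region by edgeR (0.0867% and 0.423% of all genes). At an unadjusted p under 0.05 there were then 10 and 7 genes of the set (10.8% and 11% of all genes). However, same-numbered libraries of the 2 genotypes did not deviate together in every pair (r from 0.0034 to 0.212, median 0.176, in the neocortex, and from -0.14 to 0.132, median 0.043, in the hippocampus, against medians of -0.014 and -0.023 for different numbers). By the rule that every pair exceed 0.1 the number was not taken as a pairing. In the neocortex numbers 1, 2 and 3 did exceed every pair of different numbers (at most 0.126). The block gave FDR values of 0.0655 for Npas4 and 0.0963 for Btg2 in the neocortex, and of 0.115 for Npas4 and 0.0552 for Ier5 in the hippocampus. Leaving out each library gave 0 to 3 genes in each region. When cTKO library 3 and the library with embryonic transcripts were both left out (added after seeing the data), 4 genes were called in the neocortex. Over all genes, the DEGs numbered 26 in the neocortex (163, 167 and 221 by the exact test, likelihood ratio test and DESeq2, 42 with no filter, 12 with the block, 9 with RNA integrity, 7 to 133 with 1 library left out, 402 with both libraries out) and 67 in the hippocampus (258, 259 and 331 by these tools, 189 in the fit of 20 libraries, 58 with the block, 36 with RNA integrity, 15 to 149 with 1 library left out). The interaction called 8 genes (26 by the likelihood ratio test and by DESeq2, 18 with the mouse block, 5 to 20 with 1 library left out, and, added after seeing the data, 20 without both cTKO 3 libraries and 19 with the mouse block as well). With 1 library left out, Egr3 ranged from -0.52 to 0.0071 in the neocortex (reversed without cTKO library 2, 0.0028, or 4) and from -0.044 (without library 3) to 1.13 in the hippocampus, where it was -0.0088 without both libraries. Gadd45b ranged from -0.20 to 0.61 and from -0.025 to 0.64 (reversed without library 3; -0.15 in the neocortex without both). Apart from these left-out libraries, the causes were not tested. Genes near 1 CPM, such as Atf3 and Maff, are limited by depth.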
